A study of Homo sapiens with 6 samples.

Results

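The 10 genes described here, 10 of 58735 in the deposited tables, encode the death ligand TRAIL (TNFSF10), the receptors FAS, TNFRSF10A, TNFRSF10B and TNFRSF10D, the adapter FADD, the caspase-8 inhibitor CFLAR, and the inhibitors of apoptosis BIRC2, BIRC3 and XIAP. They were taken by symbol from a list of such genes drawn up with earlier results of these data known, and each symbol matched 1 row. RNA sequencing was carried out on MDA-MB-231 cells, a human triple-negative breast cancer (TNBC) line of wild-type genotype in the labels, exposed for 24 h to vehicle (3 samples) or to SCH at 100 mg/l (3 samples). SCH is a freeze-dried aqueous extract of the boiled herb *Salvia chinensis* Benth, so the treatment is a mixture of compounds, studied here in 1 line, at 1 dose and 1 time. The series names the samples of each group as biological repeats, and total counts on genes were 20291379, 18714240 and 18334857 in vehicle and 16836369, 17979434 and 18414924 in SCH. ESR1 and PGR, the hormone receptor genes that TNBC lacks, had at most 4 and 1 counts in any sample, while VIM, a mesenchymal marker of this line, stood at 263.5 ± 4.455 FPKM in vehicle (SD, n = 3). ERBB2, the gene of the HER2 receptor, was detected at 6.672 ± 0.1989 FPKM in vehicle (1225 to 1637 counts over all samples). Other markers went against these lists: the luminal keratin genes KRT8 and KRT18 stood at 128 and 129.4 FPKM in vehicle, and the mesenchymal markers TWIST1 and SPARC had 0 and at most 2 counts.

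Binding of TRAIL or FAS ligand clusters death receptors at the cell surface, and their death domains recruit FADD, which in turn brings in procaspase-8 for activation. Decoy receptors bind TRAIL without passing on a full death signal, and the products of CFLAR compete with caspase-8 at FADD. Inhibitor of apoptosis (IAP) proteins act further down: XIAP blocks active caspases directly, while the cellular IAPs encoded by BIRC2 and BIRC3 are ubiquitin ligases that act on RIPK1 at TNF receptors and keep the noncanonical NF-kB pathway low.

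After SCH treatment, transcripts of the IAP gene BIRC3 rose 2.18-fold, by far the largest change among the 10 genes. The decoy receptor gene TNFRSF10D, CFLAR, the death receptor gene TNFRSF10B and BIRC2 rose by smaller amounts, between 1.12-fold and 1.36-fold, and FADD fell to 0.831 of its vehicle level. TNFSF10, FAS, TNFRSF10A and XIAP were not past the threshold. In all, 5 genes rose and 1 fell by edgeR's quasi-likelihood test on the counts at an adjusted p (Benjamini-Hochberg over all 14736 genes tested) under 0.05, and all 10 genes passed the filter on low counts. Of all tested genes, 58.7% were called, 29.3% as higher and 29.4% as lower, so that 6 calls among 10 genes is close to the share in the whole transcriptome. With scaling by library size alone, 62.6% of the calls over all genes were higher (5519 higher, 3295 lower) in place of 49.9%, and 7 members were called higher and 1 lower. The samples of the 2 groups did not overlap for the same number of genes, 5 higher and 1 lower, against 31.1% of all tested genes higher and 31.3% lower. The median log2 fold change was 0.226 for the 10 genes against -0.0034 for all genes tested, and the median absolute log2 fold change was 0.25 against 0.311. The count of genes alone therefore did not set this group apart, and the members are described one by one. 

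**Figure D1:**
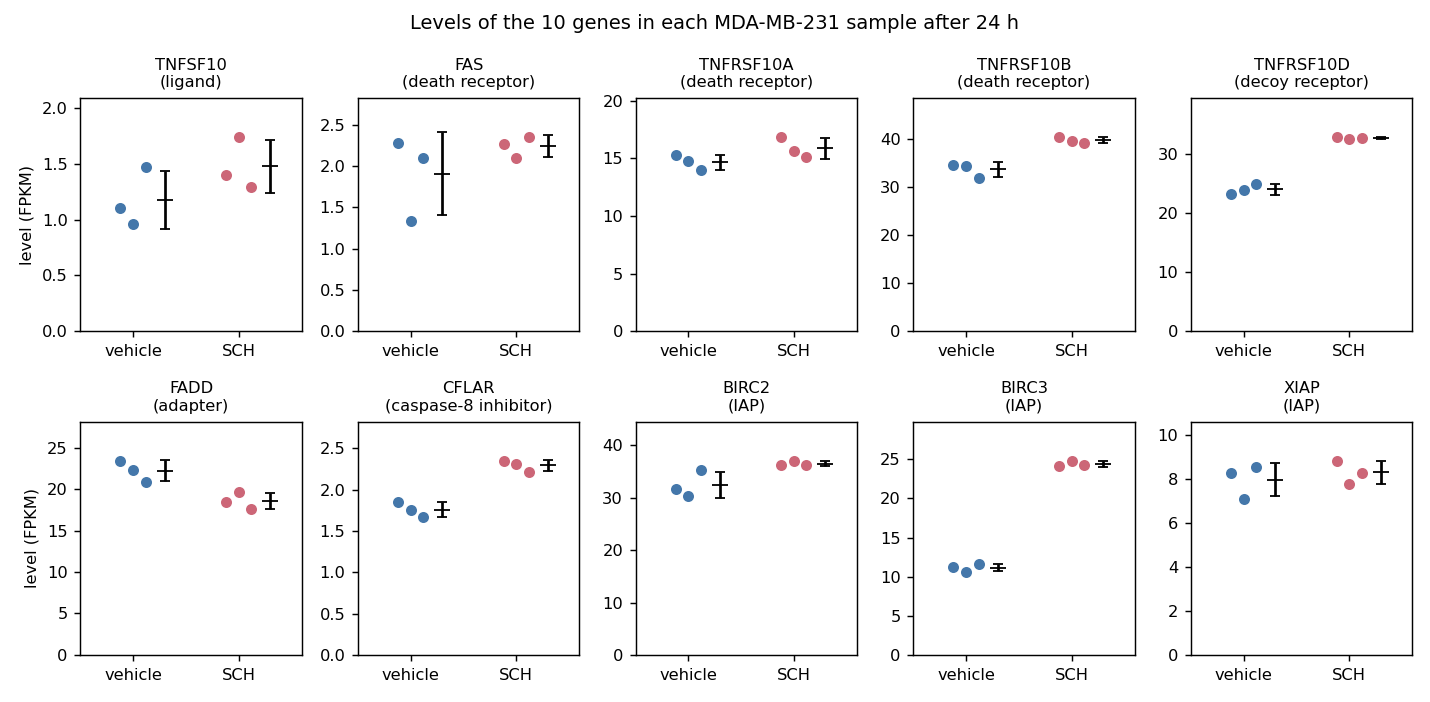
Level of each of the 10 genes (FPKM, vertical axis from 0, scaled per gene) in the 3 vehicle and 3 SCH samples; points are samples, and the bar beside them is the mean with 1 SD. BIRC3 lies between 10.65 and 11.61 FPKM in vehicle and between 24.19 and 24.84 FPKM in SCH, whereas the groups overlap for TNFSF10, FAS, TNFRSF10A and XIAP.

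**Figure D2:**
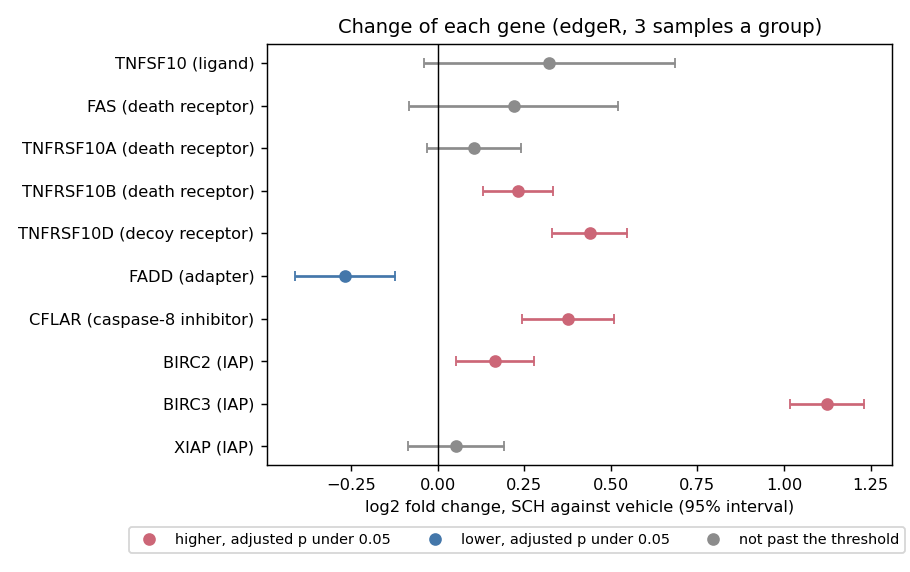
Log2 fold change of each gene in SCH against vehicle (horizontal axis) from edgeR with its 95% interval, 3 samples a group; colours give the call at an adjusted p under 0.05. The interval of BIRC3, 1.02 to 1.23, lies above that of every other gene, and FADD alone has an interval wholly below 0.

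Levels are given in FPKM, fragments scaled by exon length and library size, which can be compared between genes, and fold changes come from the counts. In vehicle, TNFRSF10B (33.75 ± 1.491 FPKM, n = 3) and BIRC2 (32.39 ± 2.527 FPKM) were the most abundant of the 10 transcripts, with overlapping samples. TNFRSF10D (24.09 ± 0.9182 FPKM) and FADD (22.23 ± 1.272 FPKM) followed, again overlapping each other. TNFRSF10A (14.67 ± 0.6409 FPKM), BIRC3 (11.15 ± 0.4839 FPKM) and XIAP (7.956 ± 0.7552 FPKM) came next, each apart from its neighbours. The lowest levels were those of FAS (1.911 ± 0.5003 FPKM) and CFLAR (1.758 ± 0.09013 FPKM), which overlapped, and TNFSF10 (1.177 ± 0.2627 FPKM). FPKM divides by all annotated exons of a gene, which for CFLAR come to 22529 bases over 25 transcripts, so its low level is not one of low counts (mean 865.8 per sample).

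BIRC3 and BIRC2 are neighbours on chromosome 11 (GRCh38), in the same orientation, with 7807 bases between the end of BIRC3 and the start of BIRC2. BIRC3 (ENSG00000023445) spans chr11:102317450-102339403 on the plus strand and BIRC2 (ENSG00000110330) chr11:102347211-102378670. The stretches just before their starts (216 bases for BIRC3 and 247 for BIRC2) are printed to describe the 2 genes, which encode closely related ubiquitin ligases. A part of these sequences in the unlike size of the 2 changes was not tested. The sequences are from RefSeq (GRCh38.p14, plus strand), with matches to the NF-kB consensus on either strand in capitals.
BIRC3, chr11:102317234-102317449: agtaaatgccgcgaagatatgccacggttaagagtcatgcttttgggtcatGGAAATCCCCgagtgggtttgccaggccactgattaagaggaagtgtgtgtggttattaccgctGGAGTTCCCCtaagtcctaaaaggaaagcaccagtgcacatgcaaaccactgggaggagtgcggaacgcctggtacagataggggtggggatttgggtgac
BIRC2, chr11:102346964-102347210: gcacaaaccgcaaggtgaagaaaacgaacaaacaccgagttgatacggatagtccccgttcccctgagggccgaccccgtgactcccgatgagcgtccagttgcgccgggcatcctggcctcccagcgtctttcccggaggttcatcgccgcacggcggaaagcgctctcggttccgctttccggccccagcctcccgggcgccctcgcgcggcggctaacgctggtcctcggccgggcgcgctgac

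The BIRC3 stretch held 2 matches, at -199 to -190 and -135 to -126 from the RefSeq start, and the BIRC2 stretch held 0. Promoter windows of 300 bases (250 before to 50 after the start) were found for 7 of the 10 genes, and 3 of them (BIRC3, CFLAR and FAS) held a match to the NF-kB consensus. Of all genes with a window, 13.3% held one. These shares are not like for like, since FAS had 3 windows and CFLAR 4, against a mean of 1.29 per gene, and 11.3% of single windows held a match. The AP-1 motif TGANTCA was found in windows of FAS, FADD and CFLAR, against 9.37% of all genes, and an interferon-response element (ISRE-type) motif in that of TNFSF10, against 4.38%. The FOXO motif GTAAACA was in 0 of the 7 genes, against 4.19% of all genes. Both strands were searched for each motif, and a match describes the letters of a window without showing that a factor binds there.

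TNFSF10 (ENSG00000121858, chr3:172505508-172523507, minus strand), which encodes the ligand TRAIL, gave 77, 62 and 94 counts in vehicle and 87, 116 and 88 in SCH. The groups overlapped, with vehicle replicate 3 above 2 SCH samples, and these are the lowest counts among the 10 genes. The log2 fold change was 0.32 (SE 0.175, 95% interval -0.04 to 0.685, adjusted p = 0.12, edgeR). Without vehicle replicate 3 the log2 fold change was 0.51 with an adjusted p of 0.0244, and with scaling by library size alone it was 0.43 with 0.0424. It was 0.20 (adjusted p = 0.384) without vehicle replicate 2 and 0.19 (adjusted p = 0.431) without SCH replicate 2. FASLG and TNF, which encode the ligands of FAS and of the TNF receptors, had at most 1 and 10 counts in any sample and were not tested. 

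FAS (ENSG00000026103, chr10:88990582-89015785, plus strand) encodes the receptor for FAS ligand, and its level was 2.284, 1.342 and 2.106 FPKM in vehicle and 2.273, 2.095 and 2.357 FPKM in SCH. Vehicle replicate 2 was lower than all other samples, and the remaining vehicle samples lay among the SCH samples. The log2 fold change was 0.22 (SE 0.146, 95% interval -0.082 to 0.522, adjusted p = 0.205, edgeR), and it was 0.38 with an adjusted p of 0.0482 without vehicle replicate 1 but 0.02 with 0.887 without vehicle replicate 2. Gene counts do not separate the membrane and soluble forms of FAS, and 8.93% of its exonic bases overlap ACTA2 on the other strand, which had 21 to 29 counts a sample.

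The TRAIL receptor genes TNFRSF10A, TNFRSF10B, TNFRSF10C and TNFRSF10D lie together within 204994 bases of chromosome 8, and those tested are all on the minus strand. TNFRSF10A (ENSG00000104689, chr8:23190452-23225126), which encodes death receptor 4, had 15.25, 14.78 and 13.98 FPKM in vehicle and 16.87, 15.63 and 15.12 FPKM in SCH. The highest vehicle sample exceeded the lowest SCH sample, and the log2 fold change of 0.11 (SE 0.0654, 95% interval -0.03 to 0.24) had an adjusted p of 0.175 in edgeR. Genes on the opposite strand, TNFRSF10A-AS1 and AC100861.1, share 16.6% of its exonic bases and were not past the threshold. With scaling by library size alone, which moved the median log2 fold change of all genes to 0.0993, it was 0.21 with an adjusted p of 0.00855, and without SCH replicate 1 it was 0.07 with 0.435.

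TNFRSF10B (ENSG00000120889, chr8:23020133-23069179) encodes death receptor 5, and its level was 34.74, 34.47 and 32.03 FPKM in vehicle and 40.54, 39.7 and 39.3 FPKM in SCH. Every SCH sample was above every vehicle sample. The rise was 1.17-fold, with a log2 fold change of 0.23 (SE 0.049, 95% interval 0.131 to 0.334, adjusted p = 0.00028, edgeR). RHOBTB2, which shares 1.3% of the exonic bases of TNFRSF10B from the opposite strand, rose by 0.57 on the log2 scale (adjusted p = 7.41e-07).

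TNFRSF10D (ENSG00000173530, chr8:23135588-23164030), whose product is a decoy receptor with a truncated death domain, rose more. Its level was 23.21, 24.02 and 25.04 FPKM in vehicle and 32.99, 32.63 and 32.77 FPKM in SCH, and the groups lay far apart relative to their spread. The log2 fold change was 0.44 (SE 0.0524, 95% interval 0.33 to 0.547, adjusted p = 1.67e-07, edgeR), or 1.36-fold. TNFRSF10C, the other decoy receptor gene of the cluster, had 1 to 8 counts a sample and was not tested.

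The makeup of the TRAIL receptor transcripts moved with these changes. TNFRSF10D made up 31.71%, 32.78% and 35.24% of the summed FPKM of TNFRSF10A, TNFRSF10B and TNFRSF10D in vehicle and 36.5%, 37.1% and 37.59% in SCH. The means were 33.25% ± 1.812 and 37.06% ± 0.5468, the groups did not overlap, and the exact two-sided permutation p of 0.1 is the smallest that 3 samples against 3 allow. The ratio of TNFRSF10B to TNFRSF10A was 2.278, 2.332 and 2.291 in vehicle and 2.403, 2.54 and 2.599 in SCH, also without overlap (exact permutation p = 0.1). The summed level of the death receptor transcripts FAS, TNFRSF10A and TNFRSF10B was 50.33 ± 2.088 FPKM in vehicle and 57.96 ± 1.527 FPKM in SCH (n = 3 each, exact permutation p = 0.1), most of it TNFRSF10B, the one gene of the 3 that was past the threshold.

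**Figure D3:**
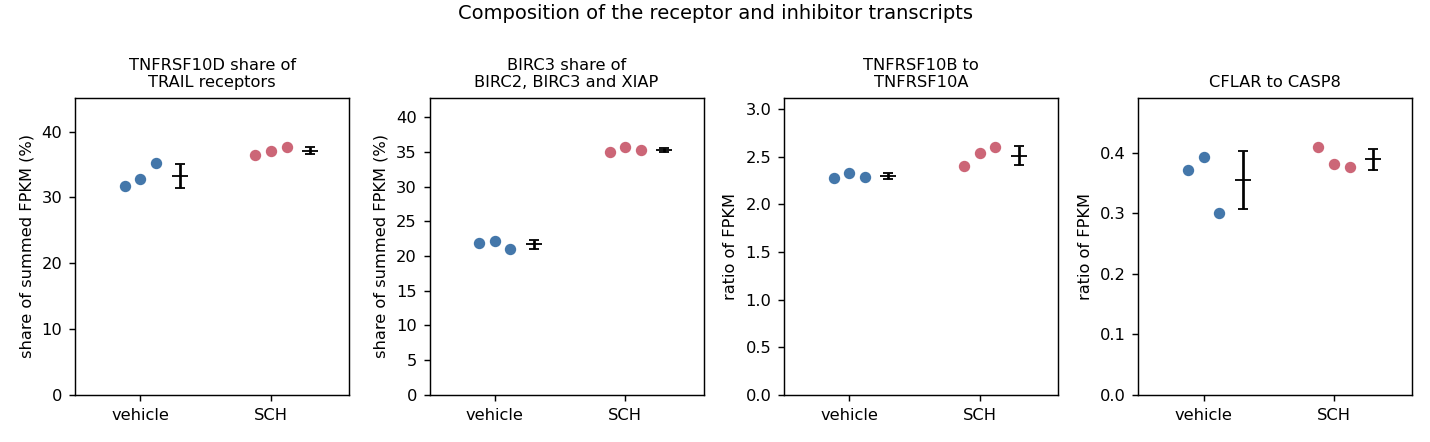
Shares (percent of summed FPKM) and ratios of FPKM in each sample, vertical axes from 0; points are the 3 vehicle and 3 SCH samples, and bars are the mean with 1 SD. The BIRC3 share lies between 20.98% and 22.14% in vehicle and between 34.97% and 35.64% in SCH, the TNFRSF10D share and the TNFRSF10B to TNFRSF10A ratio are also apart, and the CFLAR to CASP8 ratio overlaps.

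FADD (ENSG00000168040, chr11:70203163-70207390, plus strand), the adapter shared by FAS and the TRAIL death receptors, was the single member that fell. Its level was 23.45, 22.32 and 20.91 FPKM in vehicle and 18.42, 19.65 and 17.63 FPKM in SCH, so that every SCH sample was below every vehicle sample. The log2 fold change was -0.27 (SE 0.0694, 95% interval -0.411 to -0.124, adjusted p = 0.00206, edgeR), and -0.16 with an adjusted p of 0.046 under library size alone. Of the exonic bases of FADD, 54.9% are also exonic in AP000879.1 on the opposite strand, which had 0 counts in all 6 samples. The strand setting of the counting is not given in the sources used here. All 1011 bases of AP000879.1 are shared with FADD, so its 0 counts do not show whether reads there were left out of both genes. If they were, the FPKM level of FADD and its place among the members could be too low. 

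CFLAR (ENSG00000003402, chr2:201116104-201176687, plus strand) encodes c-FLIP, the relative of caspase-8 that binds FADD. It was measured at 1.85, 1.752 and 1.67 FPKM in vehicle and 2.351, 2.309 and 2.218 FPKM in SCH, with no overlap. The rise was 1.3-fold, a log2 fold change of 0.38 (SE 0.064, 95% interval 0.243 to 0.508, adjusted p = 2.42e-05, edgeR). Of its exonic bases, 12% are shared with other genes, none of which had more than 16 counts in a sample. Its long and short protein forms are not told apart by gene counts. CASP8, the protease that c-FLIP competes with, also rose (log2 fold change 0.23, SE 0.0739, adjusted p = 0.00946, edgeR), though not past the threshold without vehicle replicate 2 (0.16, adjusted p = 0.0785). The CFLAR to CASP8 ratio of FPKM was 0.3719, 0.3928 and 0.3011 in vehicle and 0.4086, 0.382 and 0.3767 in SCH. Vehicle replicate 2 lay above 2 SCH samples, and the difference of the means, 0.03384, was not past the spread between samples (exact two-sided permutation p = 0.4). It ranged from 0.006751 to 0.05259 with 1 sample left out in turn, lowest without vehicle replicate 3 and highest without vehicle replicate 2.

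BIRC3 encodes cIAP2, and its raw counts were 1696, 1486 and 1608 in vehicle and 3255, 3583 and 3578 in SCH. In FPKM these were 11.18, 10.65 and 11.61 against 24.19, 24.84 and 24.21, a difference many times the spread in either group. The log2 fold change was 1.12 (SE 0.0517, 95% interval 1.017 to 1.231, adjusted p = 1.75e-14, edgeR). Of all tested genes, 2.92% rose by at least as much, and BIRC3 was the single member whose change reached 1 on the log2 scale, against 8.77% of all tested genes that were called with at least that size in either direction. 

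BIRC2, which encodes cIAP1, had 31.6, 30.35 and 35.22 FPKM in vehicle and 36.15, 37.1 and 36.26 FPKM in SCH. The SCH samples were all higher, but vehicle replicate 3 came within 1 FPKM of the lowest of them. The log2 fold change was 0.17 (SE 0.0548, 95% interval 0.052 to 0.279, adjusted p = 0.0124, edgeR), and it was not past the threshold without vehicle replicate 1 (0.15, adjusted p = 0.0601) or without vehicle replicate 2 (0.12, adjusted p = 0.0858). With library size alone it was 0.27.

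XIAP (ENSG00000101966, chrX:123859724-123913979, plus strand), the direct caspase inhibitor, had 8.259, 7.096 and 8.512 FPKM in vehicle and 8.829, 7.761 and 8.281 FPKM in SCH. The groups overlapped throughout. Its log2 fold change of 0.05 (SE 0.067, adjusted p = 0.529, edgeR) had a 95% interval of -0.087 to 0.19, and without vehicle replicate 2 the sign turned (-0.02), while with library size alone it was 0.15 (adjusted p = 0.0552).

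The makeup of the IAP transcripts shifted towards BIRC3. The share of BIRC3 in the summed FPKM of BIRC2, BIRC3 and XIAP was 21.9%, 22.14% and 20.98% in vehicle and 34.97%, 35.64% and 35.22% in SCH, and the sum itself was 51.5 ± 3.645 FPKM in vehicle and 69.21 ± 0.4718 FPKM in SCH (n = 3 each, exact two-sided permutation p = 0.1 for both). By FPKM, BIRC2 remained the most abundant of the 3 in every sample. In raw counts, which are not scaled by exon length, BIRC3 was above BIRC2 in every SCH sample (3255, 3583 and 3578 against 2932, 3226 and 3230).

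The surrounding pathway was followed in 7 lists of other genes, also written with earlier results known, 80 in all, of which 66 were tested, 39 were higher and 14 lower. The 80.3% of them that were called stand beside 58.7% of all tested genes, and at a mean count of at least 100 the figures were 51 of 62 list genes beside 66.6% of all genes, since well-counted genes are called more often. Their median log2 fold change was 0.232. The counts of each list below stand beside 29.3% of all tested genes called higher and 29.4% called lower. Calls in these lists were 42 higher and 6 lower with library size alone, 40 and 9 with no filter, and 38 and 9 in DESeq2.

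**Figure D4:**
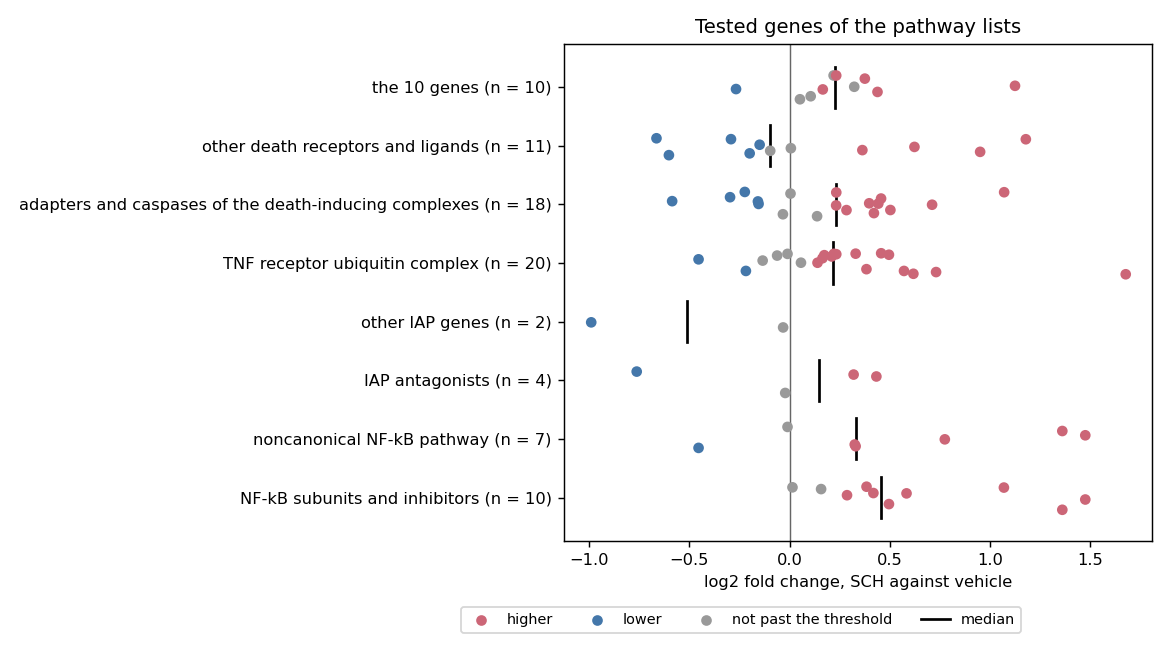
Log2 fold change in SCH against vehicle (horizontal axis) of each tested gene, by list (rows, with the number tested); each point is a gene, colours give its call in edgeR, the black line is the list's median, and vertical scatter within a row carries no value. Genes in more than 1 list are drawn in each. TRAF1 (1.68), NFKB2 (1.47) and RELB (1.36) lie furthest to the right, and BIRC5 (-0.99) furthest to the left.

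Of 19 other death receptor and ligand genes, 11 were tested, 4 rose and 5 fell (median log2 fold change -0.097). The falls numbered 2 with library size alone and 3 with no filter, in DESeq2, without vehicle replicate 1 or without SCH replicate 2. TNFRSF19, a receptor of the TNF receptor family that is outside the naming rule because its mean count was under 100, had the largest rise in the list (log2 fold change 1.18, SE 0.176, adjusted p = 4.14e-06, edgeR). TNFRSF11B, outside the rule for the same reason, had the largest fall (log2 fold change -0.66, SE 0.226, adjusted p = 0.0148, edgeR). CD40, which signals to NF-kB through TRAF proteins, rose from 21.87 ± 1.879 to 42.29 ± 2.277 CPM, read counts scaled by TMM-adjusted library size (n = 3 each, log2 fold change 0.95, SE 0.0769, adjusted p = 2.75e-10, edgeR). TNFRSF14, the receptor for LIGHT (log2 fold change 0.62), and TNFRSF1B, TNF receptor 2 (0.36), also rose. In limma on log2(FPKM + 1) the TNFRSF14 value was 0.30 and still past the threshold. TNFRSF1B was not past it without vehicle replicate 2 (0.29, adjusted p = 0.0541, edgeR). TNFRSF21, or death receptor 6, fell from 170.5 ± 4.074 to 112.3 ± 2.749 CPM (log2 fold change -0.60, SE 0.0498, adjusted p = 4.1e-10, edgeR). TNFRSF1A, the TNF receptor that carries a death domain, was slightly lower (log2 fold change -0.15, adjusted p = 0.0137, edgeR), and this call was lost in 5 of the alternative settings, at log2 fold changes of -0.13 to -0.15 in 4 of them and -0.05 (adjusted p = 0.441) with library size alone. 

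Among adapters and caspases of the death-inducing complexes, 18 of 19 genes were tested, 10 rose and 5 fell (median log2 fold change 0.232), against 11 and 1 with library size alone and 3 falls with no filter, in DESeq2, without SCH replicate 2 or without SCH replicate 3. RIPK1, the kinase that cIAP proteins mark with ubiquitin, rose from 56.78 ± 2.767 to 92.93 ± 1.534 CPM (n = 3 each, log2 fold change 0.71, SE 0.057, adjusted p = 2.43e-10, edgeR). TRADD, the adapter that brings RIPK1 to TNF receptor 1, rose by 0.50 on the log2 scale, and CASP10, an initiator caspase recruited by FADD, by 0.46. In limma on log2(FPKM + 1) the CASP10 value was 0.24 and still past the threshold. CASP9, the initiator caspase of the mitochondrial route that XIAP inhibits, rose by 1.07 (SE 0.101, adjusted p = 3.48e-09). FAF1, a FAS-associated factor, fell (log2 fold change -0.59).

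All 20 genes of the TNF receptor ubiquitin complex were tested, and 14 rose and 2 fell (median log2 fold change 0.215), with 1 fall under library size alone, no filter, DESeq2, or without SCH replicate 1 or 3. TRAF1, which forms complexes with TRAF2 and the cIAPs, rose from 35.42 ± 0.9779 to 113.3 ± 1.322 CPM (n = 3 each, log2 fold change 1.68, SE 0.0573, adjusted p = 8.97e-17, edgeR), the largest rise in these lists. TRAF2, through which BIRC2 and BIRC3 products reach the receptor, fell from 55.55 ± 1.7 to 40.55 ± 1.338 CPM (log2 fold change -0.45, SE 0.0626, adjusted p = 1.36e-06, edgeR). CYLD, a deubiquitinase of the complex (0.73), IKBKG, the regulatory subunit of the IkB kinase (0.62), and TAB3, a partner of the kinase TAK1 (0.57), rose as well. IKBKG has a near-identical partial copy, between which the counting could have split reads.

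In the noncanonical NF-kB list, 5 of 7 genes rose and TRAF2 fell (median log2 fold change 0.329). NFKB2, the precursor of p52, rose from 143.2 ± 7.403 to 398.2 ± 18.01 CPM and its partner RELB from 38.85 ± 4.015 to 99.74 ± 3.99 CPM (n = 3 each), log2 fold changes of 1.47 (SE 0.0523, adjusted p = 1.54e-16) and 1.36 (SE 0.0672, adjusted p = 6.15e-14) in edgeR. OTUD7B, a deubiquitinase of TRAF3, rose by 0.77 on the log2 scale. Of the 10 NF-kB subunit and inhibitor genes, which include NFKB2 and RELB, 8 rose and 0 fell (median log2 fold change 0.457). Over all tested genes, 29.3% were called higher and 29.4% lower. Among the list genes that rose were NFKBIE, an inhibitor (1.07), and BCL3, a nuclear coactivator (0.58). The remaining NFKB1 (0.01) and NFKBIB (0.16) had positive values too, so that 0 genes of the list were lower at an unadjusted p under 0.05 in edgeR, and DESeq2 also called 0 lower.

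Of the 5 other IAP genes, 2 were tested and 1 fell (median log2 fold change -0.511). BIRC5, which encodes survivin, a subunit of the chromosomal passenger complex in mitosis as well as an IAP family member, fell from 173 ± 1.605 to 87.13 ± 5.41 CPM (n = 3 each, log2 fold change -0.99, SE 0.0537, adjusted p = 3.1e-13, edgeR). BIRC6, a giant ubiquitin ligase, had a log2 fold change of -0.03 (adjusted p = 0.686), and NAIP, with 2 to 12 counts a sample, was not tested, nor were BIRC7 and BIRC8. The list written for IAP antagonists held 6 genes, of which 4 were tested, 2 rose and 1 fell (median log2 fold change 0.149). HTRA2, a mitochondrial protease that binds XIAP when released, rose by 0.43 on the log2 scale (adjusted p = 6.69e-05, edgeR). DIABLO, the best known antagonist, had a log2 fold change of -0.02 (adjusted p = 0.931), but its annotation is divided over 2 overlapping gene entries, so its value is uncertain. The others that moved, ENDOG, a mitochondrial nuclease (0.32), and ARMC6, an armadillo-repeat gene (-0.76), are not established IAP antagonists, and ENDOG was not past the threshold in DESeq2 (0.33, adjusted p = 0.0523) or without vehicle replicate 3 (0.20, adjusted p = 0.106).

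The genes most like BIRC3 over the 6 samples, by Pearson's r of log2 CPM, were TMCC3 (0.9994), ALDH3A2 (0.9993) and RAB5B (0.9992). As the samples form 2 groups, this measure mainly orders genes by how cleanly the groups separate, and 339 of 10713 genes had an r over 0.99.

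Markers of cell types other than the cancer line were low, apart from HLA-DRA. Summed fibroblast markers were 0.7628, 0.6888 and 0.6304 FPKM in vehicle and 1.052, 1.059 and 0.9371 FPKM in SCH, without overlap, with DCN at 0 throughout. The most abundant of them, COL1A1, was 1 of 2 tested and rose (log2 fold change 0.76, SE 0.135, adjusted p = 4.26e-05, edgeR), and 6 of the 8 were at or under the floor of 3 counts. Summed endothelial markers lay between 1.129 and 1.495 FPKM, with overlapping groups. The leukocyte list summed to 17.86, 17.63 and 20.09 FPKM in vehicle and 14.96, 15.22 and 15.55 FPKM in SCH, nearly all of it HLA-DRA, and 2 of its 3 tested genes fell. PTPRC, the pan-leukocyte marker, had 39, 37 and 34 counts in vehicle and 4, 9 and 3 in SCH, while CD3E, a T cell marker, had at most 1. The part of these markers in the results was not tested. In bulk RNA, fewer cells that express a gene and less RNA of it per cell cannot be told apart.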

How the data were processed

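The authors deposited raw counts per gene, with no normalization, and FPKM values, in which a count is divided by exon length and library scale. The submitters' processing notes name CASAVA 1.8, HISAT2 2.0.5, featureCounts 1.5.0-p3, DESeq2 1.20.0 and GRCh38/hg38. The kit (NEBNext Ultra RNA) and poly-T selection are from the methods and labels. The labels give RPMI-1640 medium, the methods DMEM. Depths leave a floor of 3 counts (0.154 to 0.172 CPM).

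Counts were fitted in R 4.3.3 with edgeR 4.0.16 (filterByExpr, TMM, quasi-likelihood test, no covariates, Benjamini-Hochberg over 14736 genes). The common biological coefficient of variation was 5.17%. For ratios and sums of FPKM, group means were compared by exact permutation over the 6 samples (two-sided). Gene overlaps are from GENCODE release 29, whose coordinates equal those deposited for all 10 genes. No libraries were copies (chi-square per degree of freedom at least 2.123). In simulated counts (14564 genes) with few changed genes and a single common dispersion, the fit recovered 97% of changes of at least 1 on the log2 scale. Of its calls there, 5.73% were genes left unchanged. The simulation did not cover a share of calls as large as the 58.7% in the data. The 97% does not apply to smaller changes, such as those of most members. Python 3.11.15 made the tables and figures.

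Members and lists were chosen with earlier results of these data known. Named genes were the 10 members, 13 fixed pathway genes (4 of them also named through their list), at most 4 called genes of each list with the largest absolute change and a mean count of at least 100, and 3 genes most like BIRC3. Marker, overlapping and untested genes named beside them, and a few others such as TNFRSF19 and TNFRSF11B, were outside that rule. Alternatives were RLE, library size only, upper quartile, 2 other low-count filters, DESeq2 1.42.0, limma 3.58.1 on log2(FPKM + 1) and log2(FPKM + 0.1), a replicate block, each replicate left out, a size threshold, and other units for ratios.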

Additional observations from a re-analysis of the deposited data

How the results depend on the processing

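The calls of TNFRSF10B, TNFRSF10D, FADD, CFLAR and BIRC3 held in all 15 alternatives, with log2 fold changes of 1.07 to 1.23 for BIRC3 and -0.31 to -0.16 for FADD (highest adjusted p 0.046). With library size only, TNFSF10 (0.43) and TNFRSF10A (0.21) passed the threshold, pathway genes called lower came to 6, and BIRC6 (0.0705) and DIABLO (0.081) turned sign. Pathway genes called lower were 9 with no filter and 9 with DESeq2. At a size of at least 1 on the log2 scale, 1 member was higher and 0 lower, pathway genes were 6 and 0, and all genes 573 and 719. On log2(FPKM + 1), whose pseudocount shrinks changes of low genes, TNFSF10 was 0.19, CASP10 0.24 and TNFRSF14 0.30, against 0.32, 0.46 and 0.62. On TMM normalized CPM, not per length, the differences were 15.57 percentage points for the BIRC3 share (13.6 on FPKM), 0.1052 for CFLAR to CASP8 (0.03384) and 0.3738 for TNFRSF10B to TNFRSF10A (0.2139).

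With 1 replicate left out in turn, log2 fold changes were 0.19 to 0.51 for TNFSF10, 0.0244 to 0.38 for FAS, 0.07 to 0.15 for TNFRSF10A, 0.12 to 0.23 for BIRC2 and -0.0215 to 0.11 for XIAP. Calls were lost or gained as given beside those genes, and BIRC6 (-0.062 to 0.0348) and DIABLO (-0.1097 to 0.0945) turned sign without vehicle replicate 3 and without SCH replicate 3. Members called higher ranged from 4 to 6. Differences ranged from 3.045 to 4.812 percentage points for the TNFRSF10D share, 13.26 to 13.83 for the BIRC3 share, 0.1713 to 0.2695 for TNFRSF10B to TNFRSF10A and 0.006751 to 0.05259 for CFLAR to CASP8, and in FPKM from 6.524 to 8.599 for the death receptor sum and 16.01 to 19.63 for the IAP sum. The cause of these changes was not tested. Of 27 other named genes, 21 kept their call and direction throughout.

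With the replicate number as a block, calls were 5 and 1 for the members and 4355 higher and 4350 lower for all genes, against 4318 and 4332, and no member changed its call. Deviations of same-numbered samples correlated at 0.0604, -0.0276 and 0.0417, within the range of unlike-numbered pairs (-0.114 to 0.0802). With 3 samples a group, these values cannot show whether same-numbered samples were handled together.

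Limits are 3 samples a group, 62 to 116 counts for TNFSF10, gene-level counts without isoforms, and unknown strand handling at FADD.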

Other observations

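Of the mesenchymal marker list of the cell line, 8 of 10 genes were tested, 5 fell in edgeR and 3 (CD44, ZEB1 and FN1) were not past the threshold, a share of 62.5% called beside 58.7% of all tested genes. CAV1, which encodes the coat protein of caveolae, fell from 435.1 ± 18.89 to 193.2 ± 19.01 CPM (n = 3 each, log2 fold change -1.17, SE 0.059, adjusted p = 8.86e-14, edgeR). AXL, a receptor tyrosine kinase, fell by 0.84 and VIM, vimentin, by 0.56 on the log2 scale. Of the luminal list, 3 of 7 tested genes rose and 4 fell. FOXA1, a luminal pioneer factor, rose (log2 fold change 1.16, SE 0.148, adjusted p = 4.41e-07), whereas GATA3 (-0.79), EPCAM (-0.52) and the keratin gene KRT18 (-0.80) fell.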
